A study of Bos taurus with 2 samples.

Results

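The centromere-side ends of the bovine autosomes were taken as the first 2 Mb of each of the 29 autosomes, in the coordinates of genome build UMD3.1. Cattle autosomes are acrocentric, so that the centromere lies next to one end, and position 1 of each sequence was taken as that end. Members were the CpG sites at positions up to 2000000 that had at least 5 reads in both libraries. This gave 561487 used sites of 657234 listed in the 29 ends, against 23978882 used sites of 27203217 in the whole series. The ends were compared with the remaining part of the same autosomes, called the rest below, which held 22547227 used sites.

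The data were the sperm methylomes of Bull1 and Bull2, monozygotic Holstein twins, profiled by whole genome bisulfite sequencing (WGBS). In WGBS, unmethylated cytosines are converted by bisulfite and read as thymine, and methylated ones are still read as cytosine. Both bulls were artificial insemination sires of the same genotype, their frozen semen was collected at the same adult age, and sperm motility was better in Bull1 according to the study. Each bull gave 1 library, which leaves the spread between replicates unknown, and every difference below compares libraries and not animals or fertility classes. Whether the semen also gave DNA of other cells was not examined here.

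The DNA next to mammalian centromeres is built from long arrays of satellite repeats and other duplicated sequence. Most of the sperm genome is highly methylated, CpG islands at promoters are the main unmethylated part, and bovine satellite DNA is known to carry less methylation in sperm than in somatic tissue. The sequence of build UMD3.1 was not used here, so whether a window of the ends holds satellite, another repeat or unique sequence was not examined, and no sequence is shown. A methylation level below is the number of methylated reads over all reads, summed over the sites of a region. Its exact Clopper-Pearson interval at 95% covers counting error only, and a read that spans several sites counts at each of them.

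The ends were less methylated than the rest in both bulls. In Bull1, 8650134 of the 15613968 reads in the ends were methylated, a level of 55.4% (95% interval 55.38 to 55.42%), against 76.1% in the rest. In Bull2 the level of the ends was 52.6% over 14302301 reads (52.57 to 52.62%), against 71.9% in the rest. Summed over autosomes, the opposite ends did not share the low level, since the last 2 Mb stood at 77.9% in Bull1 and 74.6% in Bull2. When every site counted equally, the ends had mean levels of 65.3% in Bull1 and 62.8% in Bull2, and the rest had 80.1% and 76.5%. Taken over all autosomes together, the difference between ends and rest was therefore smaller by site than by read. It had the same direction by both.

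Coverage was uneven along the ends. Over all listed sites, those without reads included, mean coverage in the ends was 24.3 reads in Bull1 and 22.3 in Bull2. This was above the 20.2 and 18.6 reads of the rest. The median over the same sites was lower in the ends, at 16 reads in Bull1 and 13 in Bull2, than the 18 and 15 reads of the rest. The higher mean went with few sites of very high coverage.

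Of the 29 ends, 24 had a lower level than the rest of their own autosome in both bulls, and the other 5 had a higher level in both. When all autosomes were divided into consecutive 2 Mb blocks, 23.2% of the 1242 blocks lay below the other blocks of their autosome in both bulls. The share among the ends was 82.8%. By contrast, the last 2 Mb lay below the rest in both bulls on 9 of 29 autosomes. The largest such difference was on chromosome 13, at -23.6 points in Bull1 and -22.2 in Bull2. By summed reads, the centromere-side end was the lowest 2 Mb block of the whole autosome on 8 autosomes, namely 9, 14, 15, 17, 19, 21, 23 and 26, and it was among the 3 lowest blocks on 17. Without the very deep sites described further below, the end of chromosome 17 stood at 62.6% in Bull1 and 60.6% in Bull2, and its place among the blocks was not computed without them.

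The levels of single ends covered a wide range. The median end stood at 59.2% in Bull1, with a range of 27.3 to 83.1%, and at 56.2% in Bull2, with a range of 27.5 to 79.2%. The rest varied less, with a median of 77.9% and a range of 60.1 to 82.6% in Bull1. The median difference between an end and its rest was -17.5 percentage points in Bull1 and -16.6 in Bull2 by reads. By site this median was larger in size, at -19.1 points in Bull1 and -18.1 in Bull2. Both bulls ranked the ends in nearly the same order (Pearson's r = 0.997 across the 29 ends, which share genome, aligner and assembly). The plot of each end beside its rest shows this spread.

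**Figure D1:**
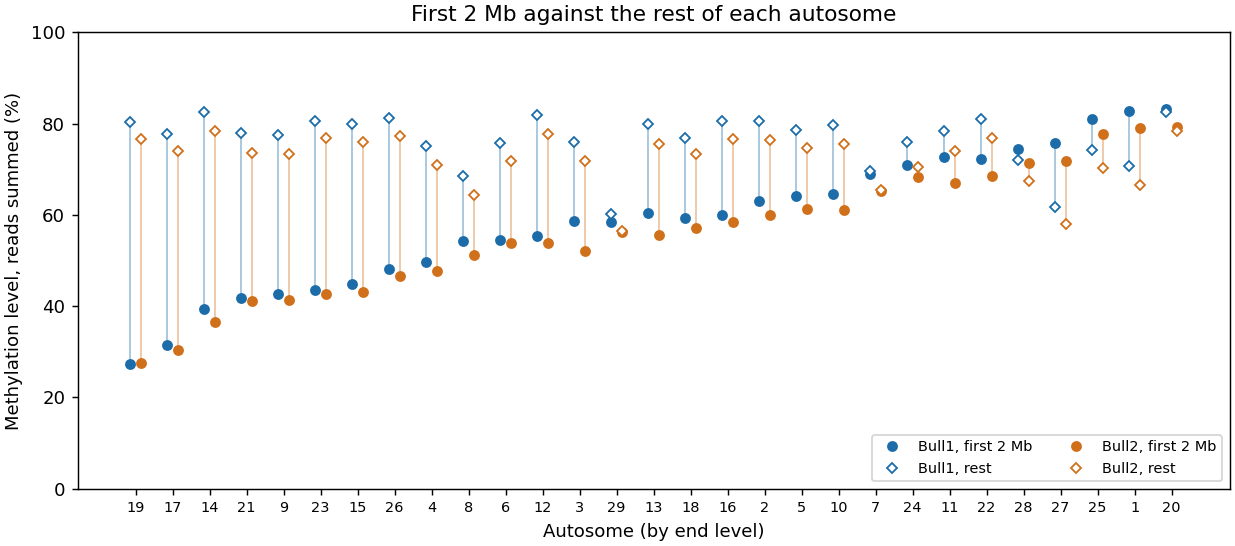
Methylation level (%, reads summed) of the first 2 Mb (filled circles) and of the rest (open diamonds) for each of the 29 autosomes, ordered by the mean end level of the bulls, with Bull1 in blue and Bull2 in orange. Ends range from 27.3 to 83.1% in Bull1, lie below the rest on 24 autosomes and above it on chromosomes 1, 20, 25, 27 and 28; each point is 1 library, so there are no error bars.

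Chromosome 19 had the least methylated end. Its level was 27.3% in Bull1, with an interval of 27.2 to 27.4%, against 80.4% in its rest. Bull2 had 27.5% at that end, with an interval of 27.4 to 27.7%, against 76.6%. Chromosome 17 followed with 31.5% in Bull1 and 30.3% in Bull2, against 77.7% and 74.1%. On chromosome 14 the end stood at 39.5% in Bull1 and 36.5% in Bull2, and the rest at 82.4% and 78.3%. By reads, these 3 ends lay more than 40 points below their rest in both bulls. By site the differences for chromosome 14 were -32.8 points in Bull1 and -30.6 in Bull2, and those for chromosome 17 were -19.5 and -18.2. Chromosome 23 had 43.4% in Bull1 and 42.8% in Bull2 at the end, against 80.5% and 76.7%. Chromosome 21 had 41.8% in Bull1 and 41.1% in Bull2, against 77.9% and 73.6%. Of these 5 ends, the one on chromosome 17 moved most when every site counted equally, to 61.4% in Bull1 and 59.1% in Bull2, and 70.2% of its Bull1 reads fell on 160 very deep sites, described further below.

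Of the 5 ends above their rest by reads, those of chromosomes 27 and 1 had the lowest rest. That of chromosome 28 followed, with a rest of 72.0% in Bull1 and 67.3% in Bull2. By site, the rest of chromosome 27 stood at 77.7% in Bull1 and that of chromosome 1 at 80.2%, where the median rest was 80.4%. On chromosome 27 the end stood at 75.7% in Bull1 and 71.9% in Bull2, and the rest at only 61.7% and 58.1%. On chromosome 1 the end stood at 82.8% in Bull1 and 79.1% in Bull2, against 70.6% and 66.5% in the rest. By site, the chromosome 27 end was above its rest by 3.14 points in Bull1 and 2.82 in Bull2, and the chromosome 1 end by 0.464 and 0.774 points. The end of chromosome 25 had levels of 80.9% in Bull1 and 77.7% in Bull2, against 74.2% and 70.2%. The end of chromosome 20 differed little from its rest, with 83.1% against 82.6% in Bull1 and 79.2% against 78.3% in Bull2. For chromosome 28 the direction depended on the averaging. Its end was above the rest by 2.38 points in Bull1 and 3.91 in Bull2 by reads, but below it by site, with differences of -5.38 and -4.89. Chromosome 8 turned the other way, from -14.2 points in Bull1 and -13.1 in Bull2 by reads to 1.13 and 1.55 points by site, and 39.6% of the Bull1 reads in its end fell on 46 very deep sites. The count of ends below the rest was 24 of 29 by either averaging.

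Among the remaining ends, chromosomes 9, 15 and 26 lay more than 30 points below their rest in both bulls. The end of chromosome 15 stood at 44.9% in Bull1 and 43.0% in Bull2, and that of chromosome 9 at 42.7% and 41.3%. Chromosome 26 had 48.1% in Bull1 and 46.7% in Bull2. Chromosomes 7 and 29 were at the other extreme by reads, with differences of -0.633 and -1.67 points in Bull1. Both had a low rest, at 69.6% and 60.1% in Bull1, and by site their ends were lower than the rest by more, with differences of -6.92 and -20.2 points in Bull1.

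The level was lowest nearest the sequence start, and most of the rise lay within the first 1 Mb. The first 100 kb window had a median over the 29 autosomes of 29.9% in Bull1 and 26.6% in Bull2. The window from 100 to 200 kb had 34.0% and 33.2%, and that from 200 to 300 kb had 49.8% and 45.5%. Medians reached 68.1% and 64.6% at 500 to 600 kb, 75.3% and 73.3% at 700 to 800 kb, and 78.7% and 74.7% at 1000 to 1100 kb. From there to 2 Mb the curve had no further steady rise, with 79.5% in Bull1 and 75.9% in Bull2 in the last 100 kb window of the ends. These medians were still below the median window of the rest, at 84.1% in Bull1 and 80.1% in Bull2. The first 100 kb lay below the median window of the rest of the same autosome in both bulls on 29 of 29 autosomes, where 48.1% of all 25106 windows did.

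**Figure D2:**
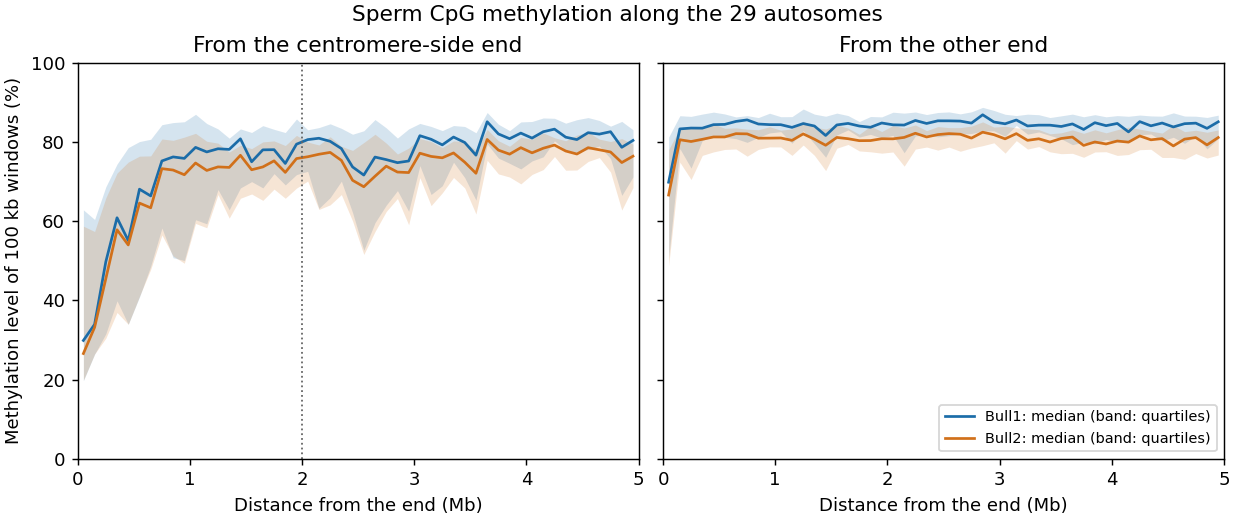
Methylation level (%) of 100 kb windows against the distance (Mb) from the centromere-side end (left) and from the opposite end (right), as the median over 29 autosomes (line) with quartiles (band) for Bull1 in blue and Bull2 in orange; the dotted line marks 2 Mb. On the left the medians climb from 29.9% in Bull1 and 26.6% in Bull2 to 78.7% and 74.7% at 1000 to 1100 kb, and on the right only the outermost window is low, at 69.9% and 66.6%.

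Seen from the opposite end, the profile had a much shorter drop. The outermost 100 kb there had medians of 69.9% in Bull1 and 66.6% in Bull2, and the next window already had 83.4% and 80.6%. On the centromere side the first 100 kb window had a median over autosomes of 23.7 reads per site in Bull1 and 21.7 in Bull2.

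Summed over autosomes in steps of 0.5 Mb, the level of Bull1 was 36.8% in the first step, 59.8% in the second, 68.8% in the third and 74.1% in the fourth. Bull2 had 34.7%, 56.9%, 65.2% and 71.0% in the same steps. In the first 0.5 Mb, 17 autosomes were under 40% in both bulls and 6 were at or above 70% in both, so the ends were unlike each other. By site the counts were 16 and 6, with some autosomes in other classes. Chromosome 8 had 31.8% in Bull1 by reads and 70.5% by site, chromosome 17 had 23.6% and 60.7%, and chromosome 11 had 53.0% and 76.1%. Chromosome 24 went from 43.3% by reads to 29.7% by site in Bull1. Chromosome 19 was lowest there with 16.9% in Bull1 and 18.0% in Bull2, and chromosome 27 was highest with 83.7% and 80.1%. By reads, the other 5 highly methylated starts were on chromosomes 1, 3, 20, 25 and 28. Of the 29 autosomes, 25 had a lower level in the first 0.5 Mb than in the rest in both bulls.

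How far the low level reached differed between autosomes. The length of the low stretch was taken as the distance to the first 3 consecutive 100 kb windows within 10 points of the median window of the rest. Its median over autosomes was 900 kb, and it was at least 500 kb on 21 autosomes, at least 1000 kb on 13 and at least 2000 kb on 8. The longest were 5100 kb on chromosome 9 and 4900 kb on chromosome 19, followed by 3900 kb on chromosome 15. On these 3 the stretch so defined went beyond the 2 Mb taken as the end, but it need not be low throughout. Windows near the rest stay inside it unless 3 follow each other. On chromosome 9 the mean of the bulls was 81.2% at 600 to 700 kb and 83.6% at 3100 to 3200 kb. Lengths from other starting points were not computed. Chromosomes 6 and 21 had 2700 kb each, chromosome 14 had 2600 kb, chromosome 23 had 2400 kb and chromosome 12 had 2000 kb. At the short side, chromosome 27 had 0 kb, chromosomes 1, 11 and 25 had 100 kb, chromosome 8 had 200 kb, chromosomes 3 and 20 had 300 kb and chromosome 28 had 400 kb. The map of 100 kb windows shows that the change from low to high was abrupt on some autosomes and broken by single high or low windows on others.

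**Figure D3:**
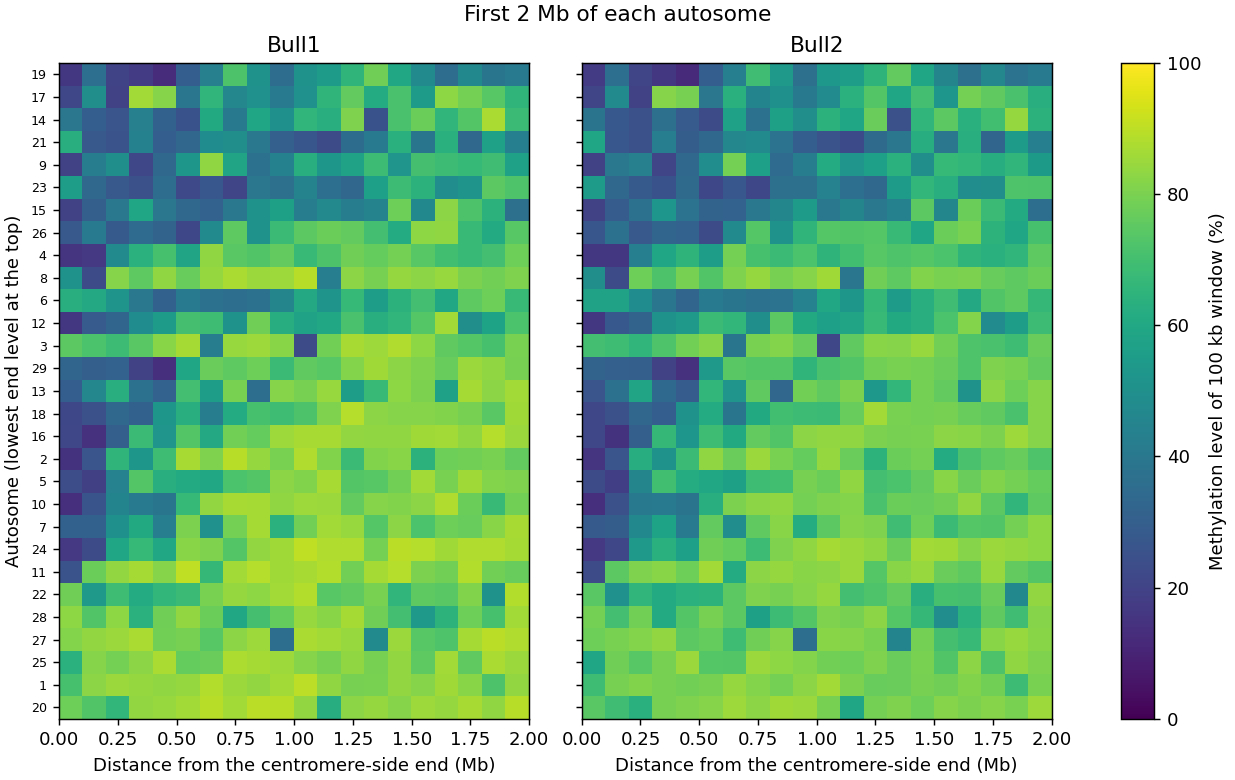
Methylation level (%, colour) of the 100 kb windows of the first 2 Mb in Bull1 (left) and Bull2 (right), with 1 row per autosome ordered by the level of its end and distance from the end (Mb) on the horizontal axis. Windows under 40% in both bulls, 96 of 580, gather at the left side and in the upper rows. Both bulls show the same pattern (r = 0.998 across the 580 windows, and 0.995 across windows of the rest).

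Of the 580 windows of 100 kb in the ends, 96 were under 40% in both bulls, which is 16.6%. Over all autosomes the share was 1.63%, or 410 of 25106 windows, and in the rest it was 1.28%. The ends held 2.31% of the windows and 23.4% of the windows under 40%. The first 100 kb was under 40% in both bulls on 18 of the 29 autosomes. The lowest window was chr19:400001-500000, with 12.6% in Bull1 and 12.1% in Bull2 at 1219 sites. It was followed by chr10:1-100000 with 13.4% and 13.5%, chr29:400001-500000 with 13.8% and 14.1%, chr16:100001-200000 with 14.3% and 14.7%, and chr2:1-100000 with 14.8% and 15.3%. In these 5 windows the bulls differed by less than 0.5 points. The windows of chromosomes 19, 29 and 16 had mean coverage of 15.1, 15.8 and 13.5 reads per used site in Bull1. This was below the 20.2 reads per listed site of the rest, and the part of coverage in their levels was not tested. The highest windows of the ends were chr24:1000001-1100000 with 90.3% in Bull1 and 86.5% in Bull2, chr11:500001-600000 with 90.4% and 86.1%, and chr1:1000001-1100000 with 90.2% and 86.0%. There Bull1 was higher by 3.76 to 4.31 points. Mean coverage of these 8 windows was at most 23.0 reads per site in either library, but the first bases of 2 of them were deeper. The run chr2:1-9000 had 107.5 reads per site in Bull1 and 109.8 in Bull2, at levels of 14.4% and 14.9%. The run chr10:1-5000 had 88.4 and 106.2 reads per site, at 13.7% and 13.6%.

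At the scale of single sites the ends held more unmethylated and more intermediate CpGs. Among sites with at least 10 reads in both libraries, 31.3% of those in the first 0.5 Mb were under 20% methylated in Bull1 and 31.1% in Bull2. The rest had 5.28% and 5.29%. Sites between 20 and 80% made up 37.8% of the first 0.5 Mb in Bull1 and 42.6% in Bull2, against 14.8% and 25.8% in the rest. Sites at or above 80% were reduced accordingly, to 30.9% in Bull1 and 26.3% in Bull2, against 79.9% and 68.9%. Between 1.5 and 2 Mb the share under 20% was down to 6.91% in Bull1 and 6.88% in Bull2.

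Windows of 1 kb gave the same order. Of 50374 windows with at least 3 used sites in the ends, 3986 or 7.91% were under 20% in both bulls, where 2.24% of the windows of all autosomes were. The share was 19.3% in the first 0.5 Mb, 5.69% between 0.5 and 1 Mb, 3.79% between 1 and 1.5 Mb, and 3.01% between 1.5 and 2 Mb, against 2.11% in the rest. The distribution in the first 0.5 Mb had a broad low part and a reduced high part, with quartiles of 21.8% and 85.2% around a median of 51.8% in Bull1.

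**Figure D4:**
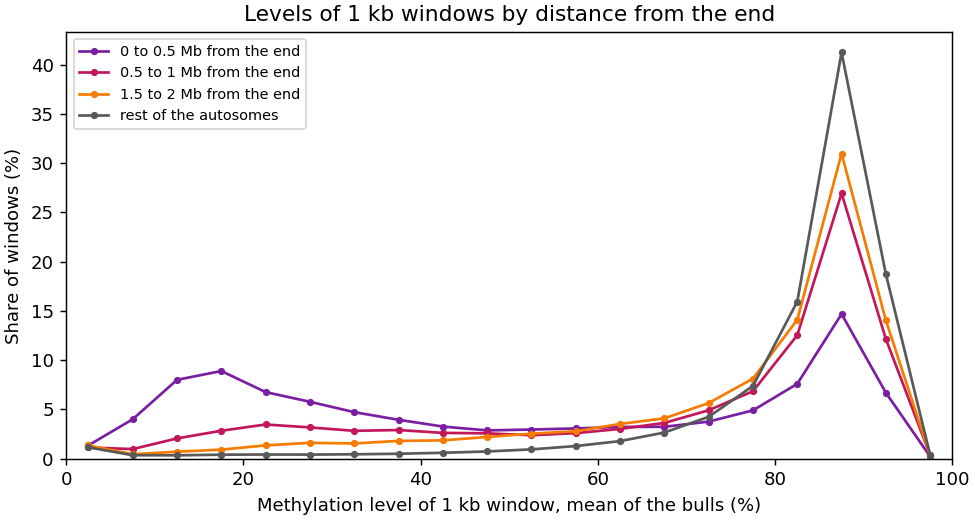
Share (%) of 1 kb windows by methylation level (mean of the bulls, %) for 3 distances from the centromere-side end and for the rest of the autosomes. The curve of the first 0.5 Mb has a broad part at low levels, where 19.3% of its windows are under 20% in both bulls, and the curve of 1.5 to 2 Mb, with 3.01%, nears that of the rest, with 2.11%.

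Low windows of the ends often lay side by side. Runs of consecutive 1 kb windows under 20% in both bulls that were at least 10 kb long numbered 49 in the ends, on 15 autosomes, which is 0.845 per Mb. The rest held 68 such runs, or 0.0277 per Mb. Runs of at least 3 kb were also more frequent, with 5.91 per Mb against 1.71. The longest was chr29:366001-416000, 50 kb with 1229 used sites, at 9.96% in Bull1 and 9.41% in Bull2. The next was chr10:48001-84000, 36 kb at 12.6% in both bulls. Runs of 30 kb followed at chr16:161001-191000, with 12.8% in Bull1 and 13.5% in Bull2, and at chr19:392001-422000, with 8.69% and 8.30%. Chromosome 16 had a further run at chr16:201001-229000 with 12.9% in Bull1 and 13.0% in Bull2, and chromosome 4 had one at chr4:173001-201000 with 9.33% and 9.95%. The longest run had a mean coverage of 12.9 reads per site in Bull1 and 11.2 in Bull2, below the mean of the ends.

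The lower level of the ends was also seen among sites of like CpG density. Density counted the listed CpGs up to 100 bp away on either side, with the site itself. Isolated CpGs, with 1 or 2 in that span, had 55.7% in Bull1 and 53.1% in Bull2 in the first 0.5 Mb, against 84.0% and 79.7% in the rest. Sites with 3 to 5 CpGs had 50.3% and 47.5%, against 83.0% and 79.2%, and those with 6 to 10 had 28.7% and 27.7%, against 68.7% and 65.8%. The densest class, with 16 or more, had 8.76% in Bull1 and 9.71% in Bull2 against 30.6% and 32.0%. By site, the densest class of the first 0.5 Mb had 22.6% in Bull1 and 23.1% in Bull2, against 27.2% and 26.2% in the rest. Over the whole 2 Mb that class had 20.9% and 22.7% by reads, below the rest, but 29.3% and 28.9% by site, slightly above it. Sites near the start were in denser surroundings, as 31.4% of those in the first 0.5 Mb had 6 to 10 CpGs and 10.5% had 11 to 15, against 21.6% and 5.44% in the rest. With the rest weighted to the density classes of the ends, the level of the ends minus that of the rest was -17.3 points in Bull1 and -16.1 in Bull2, in place of -20.7 and -19.4. The median over autosomes was 10.1 listed sites per kb in both ends and rest, and the ends ranged from 5.32 on chromosome 6 to 33.5 on chromosome 25. Across the 29 ends the level had a Pearson's r of 0.455 with the number of CpGs per kb, by reads, and 0.460 by site.

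Very deep sites took a large share of the reads in the ends. Sites above a coverage limit of 522 reads in Bull1 or 528 in Bull2, a high percentile of each library, made up 0.391% of the used sites of the ends and held 21.5% of their reads in Bull1 and 22.3% in Bull2. Their level was 32.1% in Bull1 and 30.1% in Bull2. The rest had 0.105% of such sites with 6.17% and 6.99% of the reads. Without these sites the ends stood at 61.8% in Bull1 and 59.0% in Bull2, against 79.3% and 75.2%, so the ends remained lower by 17.5 and 16.2 points. Deep sites occurred in 22 of the 29 ends, and 1358 of the 2194 lay on chromosome 14, where they held 56.98% of the Bull1 reads. Without chromosome 14 the ends were lower than the rest by 16.6 points in Bull1 and 15.4 in Bull2. Whether the reads of deep sites came from more copies than the assembly holds was not tested.

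The deepest 1 kb windows were of both kinds. The deepest was chr17:269001-270000, at 7091 reads per site in Bull1 and 7178 in Bull2, with levels of 17.7% and 17.9%. Its neighbour chr17:270001-271000 had 19.8% in both bulls. Chromosome 8 had 23.2% in Bull1 and 23.3% in Bull2 at chr8:122001-123000, and 17.2% and 17.5% at chr8:123001-124000. None of these 4 windows was called different between the bulls by the exact test described next, with adjusted p values of 0.151 to 0.775. The window chr14:633001-634000 was highly methylated, with 89.3% in Bull1 and 86.6% in Bull2, and its difference of 2.69 points was called (adjusted p = 3.25e-91, 2-sided Fisher exact test with Benjamini-Hochberg adjustment). The test treats reads shared by neighbouring sites as separate. The difference was smaller than the mean of 4.02 points for 1 kb windows of the ends at 80 to 100%. Of the 523 windows with at least 200 reads per site over both libraries, 127 were under 20% in both bulls, 12 were at or above 80% in both, and 333 lay on chromosome 14.

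The bulls were then compared within the ends, to ask whether the sperm of the twins differed there. Bull1 was higher by 2.81 percentage points in the ends and by 4.18 in the rest. Bull1 was higher at 28 of the 29 ends, with chromosome 19 as the exception at -0.205 points, and the difference was smaller at the end than in the rest on 25 of 29 autosomes. Its median over autosomes was 2.77 points at the ends and 4.06 in the rest. By reads, the largest differences between the bulls were 6.43 points at the end of chromosome 3, 5.62 on chromosome 11 and 4.82 on chromosome 13. They were smaller by site, with 72.8% in Bull1 and 69.6% in Bull2 on chromosome 3, 81.1% and 77.6% on chromosome 11, and 66.3% and 62.6% on chromosome 13, and their order was then reversed. On chromosome 3, 65 very deep sites at 19.0% in Bull1 and 19.1% in Bull2 held 17.5% of the Bull1 reads. Without them that end stood at 67.0% in Bull1 and 60.7% in Bull2 by reads, so most of its difference remained. Chromosomes 6, 21 and 23, with ends at 54.5, 41.8 and 43.4% in Bull1, had differences of 0.60, 0.703 and 0.666 points. Other low ends differed by more, with 1.25 points on chromosome 17, 1.86 on chromosome 15 and 1.44 on chromosome 9. The end of chromosome 14, at 39.5% in Bull1, had 2.99 points, above the median. The difference between ends and rest in this shift was not tested, since there is 1 library per bull.

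The size of the shift went with the level of a window. In 1 kb windows of the ends whose mean level was under 20%, Bull1 was higher by 0.174 points on average. The mean difference was 0.785 points at 20 to 40%, 1.78 at 40 to 60%, 3.35 at 60 to 80% and 4.02 at 80 to 100%. The rest had 0.414, 1.29, 2.80, 4.13 and 4.28 points in the same classes, so windows of the ends had smaller mean differences than windows of the rest in each class. The 2 lowest classes held 9.25% and 11.7% of the windows of the ends, against 2.26% and 1.80% of those of the rest. Site levels were correlated between the bulls with r = 0.925 in the ends and 0.898 in the rest, across sites, which are not independent replicates. The ends held more low and intermediate sites than the rest, and a wider spread of levels can itself raise r. The 2 values therefore do not show in which part the bulls were more alike.

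**Figure D5:**
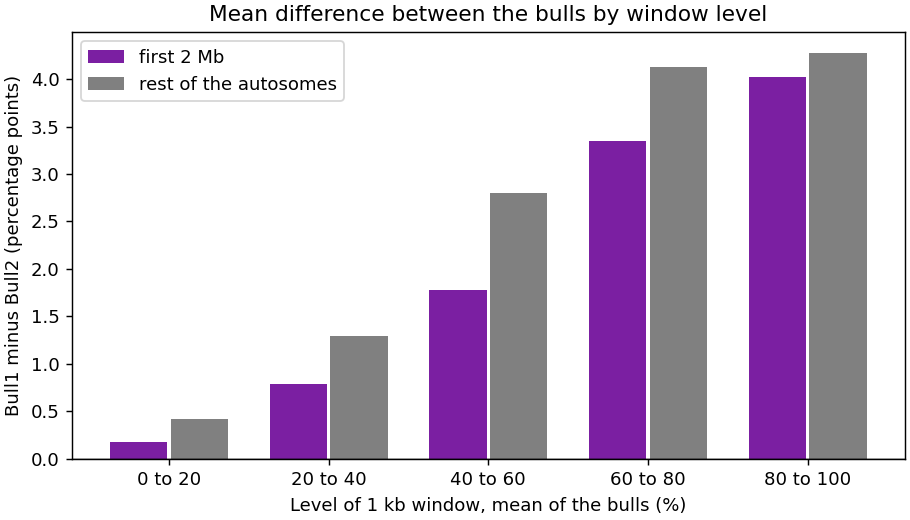
Mean difference in methylation level between Bull1 and Bull2 (percentage points) for 1 kb windows grouped by the mean level of both bulls (%), in the first 2 Mb (purple) and in the rest of the autosomes (grey). The bars rise from 0.174 points at 0 to 20% to 4.02 points at 80 to 100% in the ends, and from 0.414 to 4.28 points in the rest; no error bars are drawn because windows are not replicates.

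Each 1 kb window was tested with a 2-sided Fisher exact test of its summed methylated and unmethylated reads, with Benjamini-Hochberg adjustment over all 2358306 windows of the autosomes and X at a false discovery rate of 0.05. In the ends 2921 of 50374 windows, or 5.80%, were higher in Bull1, below the 7.51% of all windows. Windows lower in Bull1 numbered 247, or 0.490%, where 0.23% of all windows were. With a difference above 30 points in addition, 14 windows or 0.0278% were higher in Bull1, near the 0.0298% of all windows, and 4 windows or 0.00794% were lower, against 0.00369%. Neighbouring sites share reads, so these tests count some fragments more than once. When only 1 site per window was kept, 1 window of the ends was called, and 4 of all 2358306 windows were. The calls thus rest on summing the sites, and the share called is given as a description.

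Calls were unevenly spread over the ends. Chromosome 14 had the highest share called higher in Bull1, 183 of 1709 windows or 10.7%, and also 44 windows called lower. Its end had a mean of 79.0 reads per listed site in Bull1 and 69.5 in Bull2, against 24.3 and 22.3 over all ends. Bull1 was higher there by 2.99 points, against 4.12 in its rest, and the part of coverage in the shares called was not tested. Chromosome 25 had 205 of 1937 windows called higher, or 10.6%, and 8 called lower. On chromosome 19 the calls went mostly the other way, with 12 windows higher and 26 lower in Bull1 of 1518. The ends of chromosomes 6 and 21 had 15 and 14 windows called lower, beside 21 and 44 called higher.

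The largest called differences with at least 5 sites and 10 reads per site were scattered over autosomes. The window chr13:864001-865000 had 74.5% in Bull1 and 39.1% in Bull2 (adjusted p = 1.41e-05 by the exact test). The window chr15:1827001-1828000 had 86.8% and 51.4%, with an adjusted p of 0.000133 by the exact test. The other 3 gains of Bull1 were chr9:1992001-1993000 with 77.8% against 46.3%, chr10:528001-529000 with 57.1% against 27.3%, and chr1:1313001-1314000 with 85.1% against 55.2%. Each was surrounded by wide counting intervals, such as 65.4 to 82.4% for Bull1 and 31.2 to 47.3% for Bull2 at the window of chromosome 13. Among windows lower in Bull1, chr17:620001-621000 had 41.9% against 69.6% in Bull2, chr22:1260001-1261000 had 25.2% against 51.4%, and chr6:1973001-1974000 had 46.2% against 72.0%. Chromosome 19 had 2 of the 5, chr19:1073001-1074000 with 31.9% against 57.6% and chr19:1166001-1167000 with 35.4% against 61.1% (adjusted p = 3.82e-05 by the exact test for the latter).

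At single sites, the same test over 23978882 sites called 37 CpGs in the ends, which was 37 of the 82 called in the whole series. The study reports far more differentially methylated cytosines over the genome, with Fisher's exact test and the same minimum coverage and false discovery rate. The reason for this gap was not examined. All 37 were higher in Bull1, a share of 0.00659% against 0.000321% of all sites, and 0 were lower, against 2.09e-05% of all sites. Most of these calls were at very deep sites. Of the 37, 36 lay above the coverage limit of 522 and 528 reads, their median coverage was 3613 reads in Bull1 and 2755 in Bull2, and their median difference was 6.52 points, with a range of 2.36 to 18.3. Chromosome 14 held 21 of them, between positions 148987 and 633531, and chromosome 28 held 11, between 1894111 and 1894262. Chromosomes 21 and 29 had 2 each, and chromosome 25 had 1. When the sites above the coverage limit were left out, 0 sites were called in the ends. At an unadjusted p of at most 0.05, 11585 sites of the ends or 2.06% were higher in Bull1, where 2.53% of all sites were, and 3347 or 0.596% were lower, against 0.346%.

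Of the regions that the study lists as differentially methylated, 15 lay inside the ends, 9 of them higher and 6 lower in Bull1. They were selected on these libraries, so their levels are given as a description, over all listed sites. Their number is not read against the regions listed elsewhere, and nothing particular to the ends is drawn from it. Mean coverage was under 10 reads per site in at least 1 library for 13 of the 15, and 6, those of STUB1 and PLEKHA6 among them, had no site with 5 reads in both libraries and so no member of the ends as defined above. Chromosome 25 held 5 of them. The region chr25:1522316-1522509, listed at RPS2, which encodes a protein of the small ribosomal subunit, and at the promoters of RNF151 and SNORA64, had 160 of 199 reads methylated in Bull1, or 80.4%, and 0 of 106 in Bull2, for which the interval reached 3.42%. The region chr25:558442-558511, listed in the 5′ UTR and exon of STUB1, a ubiquitin ligase gene, had 9 of 12 reads in Bull1 and 1 of 52 in Bull2. Both had a mean of under 8 reads per site in either library.

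Gene regions lower in Bull1 included those on chromosomes 16, 20 and 29. The region chr16:1830278-1830455 of PLEKHA6 had 6 of 24 reads methylated in Bull1 and 99 of 120 in Bull2. In an intron of DOCK2, which encodes an exchange factor for Rac, chr20:1890967-1891391 had 27.5% in Bull1 and 57.5% in Bull2. At FAT3, an atypical cadherin gene, chr29:1993988-1994353 had 35.8% in Bull1 and 74.0% in Bull2. The 2 best covered regions had no listed gene, namely chr13:155458-156533 with 58.7% in Bull1 and 28.7% in Bull2, and chr15:295493-295759 with 58.6% and 24.8%.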

How the data were processed

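Sperm DNA of 2 bulls, with 1 WGBS library each, had been aligned by the authors to UMD3.1 with Bismark and Bowtie2 and deduplicated. The submitters' processing notes also name FastQC 0.11.2 and Trim Galore 0.4.0. The deposited files give, per CpG site, the authors' counts of methylated, unmethylated and all reads, not normalized, and the methylation level as a fraction of methylated over all reads, which was not used for levels. Methylated and unmethylated counts added up to the total in every row. Multiply mapped reads, copies missing from an assembly and incomplete conversion could each alter levels near centromeres, and mapping quality was not used here. Whether positions count from 0 or 1 is not stated.

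Sites with at least 5 reads in both libraries were used. Windows of 1 kb needed at least 3 such sites, and named windows of 100 kb at least 100. Levels were pooled over reads, and exact Clopper-Pearson intervals were set at 95%. Fisher exact tests were computed in Python 3.11.15 with a function written for the purpose and compiled by numba 0.67.0. Intervals were computed with scipy 1.17.1. The window test was also run on simulated reads that were independent of each other. That run had no reads shared between sites and no shift or spread between libraries, so it cannot show how these affect the calls. Chromosome X entered the adjustment and the counts and shares given over all tested windows, all sites and the whole series. It was in neither the ends nor the rest.

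Named were the 5 lowest and 5 highest ends against their rest and the autosome with most called sites, the 5 lowest and 3 highest windows of 100 kb, the 5 windows of 1 kb with the largest difference per direction among called ones with at least 5 sites and a mean of 10 reads, the 5 deepest windows, the longest low runs (6, because of equal lengths) and the regions the study lists, of which 1 is not reported here and the others are given by number or by name. Ends, windows and counts outside this rule were named after their values were seen. The ends and these rules were chosen with earlier results of these data known, and the rule for the length of the low stretch after seeing the windows. DGAT1 on chromosome 14 was also on the list, but its position and other gene annotation of UMD3.1 were not analysed here. Gene names are those the study gives.

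Alternatives were a minimum of 10 reads, means by site, sites above the 99.9th percentile of coverage left out, ends of 1 and 5 Mb, the rest weighted to the CpG density of the ends, other window rules, and an unadjusted p. Sites of 10 to 40 reads only, and the ends without chromosome 14, were added after seeing the data.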

Additional observations from a re-analysis of the deposited data

How the results depend on the processing

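The ends stayed below the rest in both bulls, and Bull1 stayed above Bull2 in the ends, under each alternative run. The level of the ends, given for Bull1 and then Bull2, was 54.8 and 52.0% with at least 10 reads, 65.3 and 62.8% as a mean by site, 61.8 and 59.0% without sites above the coverage limit, 45.6 and 43.0% for ends of 1 Mb, 65.4 and 62.2% for ends of 5 Mb, 69.7 and 66.8% for sites of 10 to 40 reads, and 59.3 and 56.4% without chromosome 14. The level of the ends minus that of the rest, -20.7 and -19.4 points as reported, was -21.6 and -20.2, -14.8 and -13.7, -17.5 and -16.2, -30.5 and -28.9, -10.7 and -9.78, -14.1 and -13.0, and -16.6 and -15.4 points in the same order, and -17.3 and -16.1 points when the rest was weighted to the CpG density of the ends. Bull1 minus Bull2 in the ends was 2.50 points by site, 2.75 without sites above the coverage limit, 2.58 for 1 Mb, 3.26 for 5 Mb, 2.94 for 10 to 40 reads and 2.97 without chromosome 14. Minus the same difference in the rest, -1.38 points as reported, it was -1.09 by site, -1.59 for 1 Mb, -0.948 for 5 Mb, -1.21 with the weighted rest, -1.06 for 10 to 40 reads and -1.21 without chromosome 14. Ends below the rest numbered 23 of 28 without chromosome 14 and 22 to 25 of 29 otherwise. Chromosome 14 moved the pooled levels most of all autosomes left out in turn.

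The 3168 windows of 1 kb called in the ends became 18 with a difference above 30 points and 1 with a single site per window, a construction that leaves few reads per test. The 37 called sites became 14932 without adjustment of p and 0 without sites above the coverage limit. No paired analysis was possible because the twins form a single pair of libraries. With 1 library per bull, counting intervals do not cover differences between ejaculates or library preparations.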
